A study of Homo sapiens with 7 samples.

Results

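A pair of stable hESC lines that differed in the catalytic activity of an inducible transgene was compared after 4 days of doxycycline (Dox), by the FPKM of their genes (fragments per kilobase of transcript, scaled to the number of mapped reads). The comparison used 2 of the 7 RNA-seq libraries of the series: JMJD3c-D4, from SEES-3 human embryonic stem cells expressing JMJD3c, and JMJD3c-mut-plus, from SEES-3 cells expressing a JMJD3c mutant that lacks catalytic activity. JMJD3c is the C-terminal catalytic region of the histone demethylase JMJD3 (KDM6B), carried on a piggyBac vector with a nuclear localization signal, an HA tag and a Tet-responsive promoter, in cells that also carried the Dox-dependent activator. Both lines were selected with puromycin and had Dox at 1 µg/ml for 4 days. The same lines without Dox, JMJD3c-D0 and JMJD3c-mut-minus, gave the difference between the lines before induction. Each condition had 1 library, so no difference below could be checked against replicates and no test was made. Each line is a single stable line, so catalytic activity cannot be told apart from other differences between the lines. The untreated pair, which shares no library with the Dox-treated pair, shows only the differences present without Dox.

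JMJD3 removes methyl groups from trimethylated lysine 27 of histone H3 (H3K27me3), the mark that Polycomb repressive complex 2 places on chromatin. In pluripotent cells many promoters of developmental regulators carry this mark together with an activating mark and are transcribed at a low level. Mesoendoderm, the common precursor of mesoderm and definitive endoderm, forms in the primitive streak under NODAL, WNT and BMP signalling, and its early genes include EOMES, T, MIXL1, SOX17 and CER1.

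The depth, estimated from the spacing of low FPKM values, was about 4860000 reads for JMJD3c-D4, 6400000 for JMJD3c-mut-plus, 3550000 for JMJD3c-D0 and 7320000 for JMJD3c-mut-minus. The induced gene was measured as KDM6B, to which reads from the transgene also map. KDM6B was listed at 3.45 FPKM in JMJD3c-D0 and 2.40 in JMJD3c-mut-minus, and at 282 in JMJD3c-D4 and 454 in JMJD3c-mut-plus. KDM6B was thus far higher with Dox in both lines, and highest in the mutant line. These values do not separate the transgene from the endogenous gene, which the study reported as upregulated by Dox in the JMJD3c line. The part of this difference in KDM6B level in the results below was not tested. The pluripotent markers POU5F1, NANOG, SOX2 and LIN28A summed to 1219 FPKM in JMJD3c-D4 and 1290.0 in JMJD3c-mut-plus, and none was called different by the thresholds given next. The libraries are bulk samples, in which fewer cells expressing a gene and less RNA per cell cannot be told apart.

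Of 9999 genes with more than 4 FPKM in either Dox-treated library, 656 (6.56%) were higher in JMJD3c-D4, with over 2-fold the FPKM of JMJD3c-mut-plus and a level above 4, and 300 (3%) were lower, with under 0.5 of that FPKM and a level above 4 in JMJD3c-mut-plus. Genes past these thresholds are said to be called. Differences are given as log2(FPKM + 1) in JMJD3c-D4 minus the same in JMJD3c-mut-plus, a scale that compresses differences at low FPKM. The median difference over the 9999 genes was -0.02. The called higher genes had a median of 10.5 FPKM in JMJD3c-D4 and 3.20 in JMJD3c-mut-plus, and 25 of them were listed at 0 in JMJD3c-mut-plus. The called lower genes had medians of 3.8 and 9.82 FPKM, and 5 were listed at 0 in JMJD3c-D4. Cufflinks gives a 95% interval for each FPKM, which covers the estimation in that library only, and not how far separate cultures would vary. These intervals were apart for 328 of the higher genes (50%) and 126 of the lower genes (42%). Because these genes were chosen for a 2-fold ratio, intervals apart were favoured in advance among them. The called genes nearest the thresholds were BLOC1S1, at 81.8 against 40.9 FPKM, and AGO2, at 7.43 against 14.9. NODAL, with a ratio of 1.90, lay just outside.

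**Figure D1:**
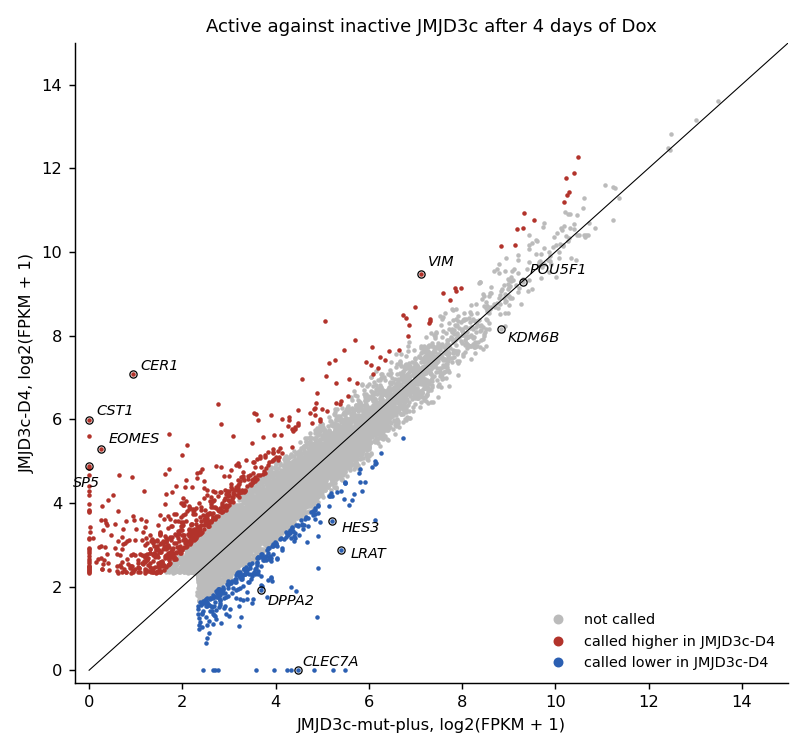
FPKM of each gene in JMJD3c-D4 (vertical) against JMJD3c-mut-plus (horizontal), both on a log2(FPKM + 1) scale, for genes above 4 FPKM in either library other than chromosome Y genes and XIST; 1 library a side. Genes called higher (red) reach far from the diagonal at low JMJD3c-mut-plus values, with CER1, CST1, EOMES and SP5 at the edge, while POU5F1 lies on the diagonal and KDM6B below it.

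The untreated lines also differed, in a similar number of genes. Between JMJD3c-D0 and JMJD3c-mut-minus, 705 of 10051 genes (7.01%) were higher and 279 (2.78%) were lower by the same thresholds. Their intervals were apart for 231 of the 705 and 114 of the 279. Of the 656 genes higher with Dox, 159 (24.2%) were already more than 2-fold higher in JMJD3c-D0 than in JMJD3c-mut-minus, against 5.38% of all genes tested with Dox. A further 57 (8.69%) differed 2-fold the opposite way, against 3.17% of all, and 440 (67.1%) were within 2-fold. Of the 300 lower genes, 32 (10.7%) were already below 0.5, against 3.17%. A further 29 (9.67%) differed the opposite way, against 5.38%, and 239 (79.7%) were within 2-fold. In reverse, of the 705 genes higher between the untreated lines, 151 (21.4%) were more than 2-fold higher with Dox, against 4.70% of genes tested untreated. Of the 279 lower genes, 32 (11.5%) were below 0.5 with Dox, against 3.47%. Most differences between the untreated lines were thus not seen at 2-fold with Dox. The median difference of the 656 genes higher with Dox was 1.33 with Dox and 0.25 without, and that of the 300 lower genes was -1.06 and -0.09. Because these genes were chosen on the Dox-treated pair, a smaller untreated median was favoured in advance and is no separate support. Across the 9999 genes, the Dox-treated and untreated differences had a Pearson correlation of 0.27, in which genes are not independent and each difference rests on 2 libraries.

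**Figure D2:**
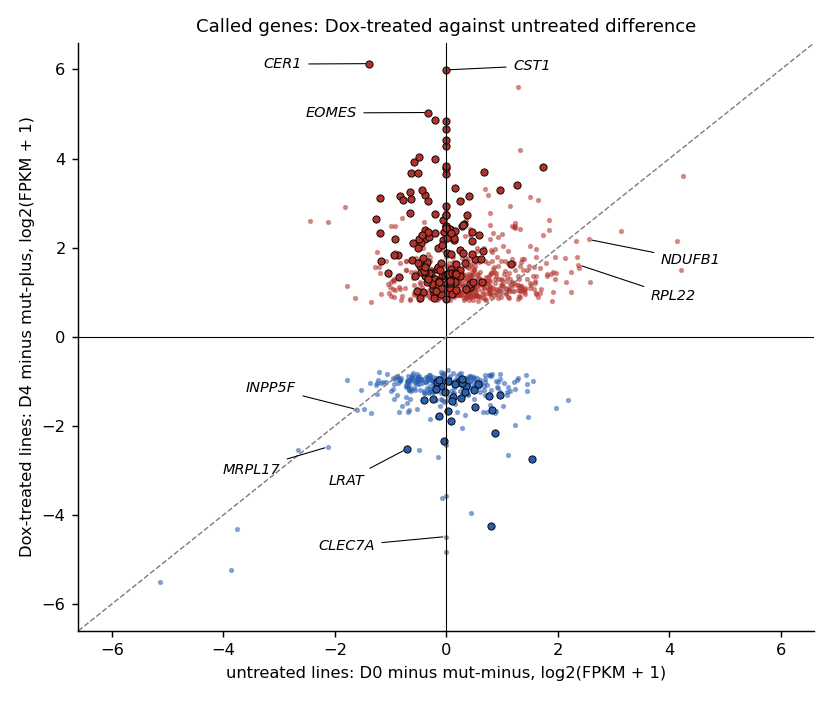
Difference of the Dox-treated lines (vertical) against that of the untreated lines (horizontal) for the called genes, on the log2(FPKM + 1) scale; red is higher and blue lower in JMJD3c-D4, and outlined points are the 148 and 32 genes that differed from all 3 other libraries with intervals apart. Points near the dashed line, such as NDUFB1, RPL22, MRPL17 and INPP5F, differed as much without Dox, while CER1, CST1 and EOMES lie far above it.

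To find genes that set JMJD3c-D4 apart from every other condition, JMJD3c-D4 was compared with the 3 other libraries together, a comparison added after the values were seen. JMJD3c-D4 was more than 2-fold above each of the 3 for 278 genes (2.78%), and below 0.5 of each for 91 (0.91%). With the interval of JMJD3c-D4 apart from all 3, 148 higher and 32 lower genes were left. Of the 278 and 91 genes, only 136 and 15 also passed the same ratios with JMJD3c-D3 in place of JMJD3c-D4. The median FPKM of the 148 higher genes was 2.10 in JMJD3c-D0, 2.21 in JMJD3c-mut-minus, 2.27 in JMJD3c-mut-plus and 13.4 in JMJD3c-D4. Earlier libraries of the same line had medians of 3.82 (Day 1), 6.02 (Day 2) and 8.91 (Day 3). The 32 lower genes had medians of 20.6, 16.5, 16.0 and 4.06 FPKM in the same order, with 17.6, 11.4 and 9.14 at Days 1, 2 and 3. The medians at Days 1 to 3 lay between those of Day 0 and Day 4 in both groups. Because the genes were chosen for a gap between Day 0 and Day 4, this order was favoured in advance and is no separate support.

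The mesoendodermal markers CER1, SOX17 and MIXL1 were called higher, and NODAL was not. CER1, a secreted antagonist of NODAL, BMP and WNT ligands (ENSG00000147869, located in hg19 on chromosome 9 from 14719722 to 14722715), reached 134 FPKM in JMJD3c-D4, with 0.924 in JMJD3c-mut-plus, 1.62 in JMJD3c-mut-minus and 0 in JMJD3c-D0. Its difference was 6.13, the largest of the genes named by the rule in the methods, and was -1.39 between the untreated lines. SOX17, an endodermal transcription factor (ENSG00000164736, chromosome 8, 55370495 to 55373448), was listed at 20.3 FPKM in JMJD3c-D4 and at 0 in the other 3 libraries. In JMJD3c-mut-plus, 3 reads would have given 0.218 FPKM, and in JMJD3c-D0 0.394 FPKM, so these zeros allow only low levels, as far as counting error goes. MIXL1, a homeodomain factor of the primitive streak (ENSG00000185155, chromosome 1, 226411319 to 226414755), was listed at 41.0, 3.29, 4.43 and 6.35 FPKM in JMJD3c-D4, JMJD3c-mut-plus, JMJD3c-D0 and JMJD3c-mut-minus. For these 3 genes the interval of JMJD3c-D4 lay above those of the 3 other libraries, which were all low. NODAL, the ligand that induces mesoendoderm (ENSG00000156574, chromosome 10, 72192071 to 72207707), differed from them. Its FPKM was 65.3 in JMJD3c-D4, 68.2 in JMJD3c-D0, 55.3 in JMJD3c-mut-minus and 34.3 in JMJD3c-mut-plus, so JMJD3c-mut-plus was the low library and JMJD3c-D4 was close to JMJD3c-D0.

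The largest differences upwards included several genes of the same developmental programme and genes of other functions. EOMES, a T-box factor needed for definitive endoderm (chromosome 3, 27757440 to 27764206), was listed at 38.2 FPKM in JMJD3c-D4, 0.196 in JMJD3c-mut-plus, 0 in JMJD3c-D0 and 0.257 in JMJD3c-mut-minus, a difference of 5.03. SP5, a zinc finger target of WNT signalling (chromosome 2, 171571861 to 171574588), was listed at 28.2 FPKM in JMJD3c-D4, 0.149 in JMJD3c-mut-minus and 0 in JMJD3c-mut-plus and JMJD3c-D0. CST1, which encodes the protease inhibitor cystatin SN (chromosome 20, 23728190 to 23731905), was listed at 62.5 FPKM in JMJD3c-D4 and at 0 in the other 3, where 3 reads would have given 0.853 FPKM in JMJD3c-mut-plus and 1.54 in JMJD3c-D0. These genes were detected at a level in JMJD3c-D4 far above anything in the 3 other libraries. The same held for DKK4, a WNT inhibitor (18.4 FPKM against 0 in all 3), ANKRD1, an ankyrin repeat protein of the heart (27.5 against 0), DIO3, which inactivates thyroid hormone (24.5 against 0), and GAD1, which makes the transmitter GABA (12.7 against 0). The DIO3 interval in JMJD3c-D4 ran from 13.5 to 1668 FPKM, so its level is poorly set. TNC, the matrix protein tenascin C, was listed at 24.6 FPKM against 0.569 in JMJD3c-mut-plus. CYP26A1, which degrades retinoic acid, was listed at 48.8 against 2.27. TFF3, a trefoil peptide, was listed at 13.2 against 0. HIST1H4C, a histone H4 gene, was listed at 17.4 against 0 FPKM but at 7.96 in JMJD3c-D0. Its transcript is short, and 3 reads would have given 4.10 FPKM there, so it is the 1 gene of these 15 whose interval was not apart from all 3 other libraries.

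Since CER1, MIXL1, EOMES and SP5 moved together from a low level, the 200 bases upstream of their RefSeq starts are shown, with GRCh37 coordinates, to set beside the values the DNA that precedes each start. Capitals mark matches, on either strand, to 7 motifs: TATAAA for the TATA box, CTTTGA for TCF/LEF factors, GGTGTGA for T-box factors, AATCCACA for FOXH1, GTCTAGAC for SMAD proteins, AGATAA for factors of the GATA family and ATTTGCAT for the POU octamer. CER1 (chr9:14722732-14722931, minus strand) and MIXL1 (chr1:226411165-226411364, plus strand) come first, then EOMES (chr3:27763815-27764014, minus strand) and SP5 (chr2:171571647-171571846, plus strand).
CER1: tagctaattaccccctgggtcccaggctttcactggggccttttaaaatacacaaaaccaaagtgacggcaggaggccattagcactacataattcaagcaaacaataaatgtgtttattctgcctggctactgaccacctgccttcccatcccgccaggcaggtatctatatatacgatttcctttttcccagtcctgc
MIXL1: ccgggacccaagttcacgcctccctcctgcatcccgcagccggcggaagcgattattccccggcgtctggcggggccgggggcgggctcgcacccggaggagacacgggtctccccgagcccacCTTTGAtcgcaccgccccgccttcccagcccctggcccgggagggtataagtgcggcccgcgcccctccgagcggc
EOMES: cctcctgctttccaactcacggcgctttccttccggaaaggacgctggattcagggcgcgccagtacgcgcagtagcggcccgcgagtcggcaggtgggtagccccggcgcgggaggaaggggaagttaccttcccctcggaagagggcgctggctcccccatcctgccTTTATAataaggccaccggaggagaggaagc
SP5: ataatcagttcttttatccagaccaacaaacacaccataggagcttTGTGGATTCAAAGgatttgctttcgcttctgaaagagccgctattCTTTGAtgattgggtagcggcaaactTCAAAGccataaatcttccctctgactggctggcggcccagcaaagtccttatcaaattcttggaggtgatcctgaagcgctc
The MIXL1 window held CTTTGA from position -76 relative to the start. The EOMES window held TTTATA, the reverse complement of TATAAA, from -31. The SP5 window held the FOXH1 letters in reverse complement from -154 and the TCF/LEF letters from -109 and, in reverse complement (TCAAAG), from -147 and -83, of which the -147 match overlaps the FOXH1 match by 1 base. None of the 7 was found in the CER1 window. Of 27305 RefSeq windows of the same length, 8.89% held the TCF/LEF letters, 8.92% the TATA box and 0.531% the FOXH1 letters, and the shares were 2.12% for the T-box, 0.110% for SMAD, 7.26% for GATA and 1.32% for the octamer. The windows differed in composition, with a GC content of 74.5% for MIXL1, 65% for EOMES, 46.5% for CER1 and 45% for SP5. The RefSeq starts of MIXL1 and EOMES lie inside the gene bounds that the files give. Part of the MIXL1 window and all of the EOMES window are thus within the genes as annotated there. A match to letters is a description and not a bound site.

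Definitive endoderm is marked by a set of transcription factors and surface receptors. Of 19 genes on the endoderm list, 13 exceeded 4 FPKM in either Dox-treated library, 11 were called higher, against 6.56% of all genes tested, and none was called lower. All 11 were also more than 2-fold above the 3 other libraries with the Dox-treated intervals apart. The median difference over the 19 genes was 2.52 with Dox and 0.00 without. Genes that the study itself named from these libraries are on this list and the next, so the counts are not independent evidence. FOXA2, a pioneer factor of endoderm, was listed at 27.2 FPKM in JMJD3c-D4, 2.27 in JMJD3c-mut-plus, 0.255 in JMJD3c-D0 and 1.86 in JMJD3c-mut-minus. GATA4, a zinc finger factor of endoderm and heart, was listed at 11.0, 0.259, 0 and 0.563 FPKM in the same order. GATA6, its relative, was listed at 14.8 FPKM in JMJD3c-D4 and 0.147 in JMJD3c-mut-minus, and at 0 in JMJD3c-mut-plus and JMJD3c-D0. In all 3 cases the single high library was JMJD3c-D4. CXCR4, a chemokine receptor used to sort endoderm, was listed at 14.1 against 0.211 FPKM, and PRDM1, a transcriptional repressor, at 4.29 against 0. OTX2, a homeobox gene of anterior endoderm and neuroectoderm, was already expressed without Dox, at 18.9 and 15.2 FPKM, and was listed at 47.7 in JMJD3c-D4 and 7.50 in JMJD3c-mut-plus. KIT and FOXA3 were expressed but not called. FOXA3 was listed at 8.27 against 7.33 FPKM with Dox and 12.9 against 5.95 without.

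Genes of the primitive streak and early mesoderm followed in part. Of 33 listed, 13 exceeded 4 FPKM, 9 were called higher, against 6.56% of all genes tested, and 1, KDR, was called lower, against 3%. EOMES, GSC and LHX1, among the called higher genes, were also counted on the endoderm list. The median difference over the 33 genes was 0.57 with Dox and 0.00 without. T (brachyury), the T-box factor that defines the streak, was listed at 23.6 FPKM in JMJD3c-D4, 0.892 in JMJD3c-mut-plus, 0.804 in JMJD3c-D0 and 0.133 in JMJD3c-mut-minus. GSC, an organizer homeobox gene, was listed at 10.5, 0.295, 0 and 0.775 FPKM, and LHX1, a LIM homeobox gene of the same region, at 15.9, 0.318, 0 and 0.417. EVX1, of the posterior streak, was listed at 4.61 FPKM in JMJD3c-D4 and 0 in the other 3, and TWIST1, of mesoderm and mesenchyme, at 5.61 and 0. TBX3 was listed at 5.71 against 0.860 FPKM. KDR, a VEGF receptor on mesodermal and endothelial cells that hESCs also express, was listed at 3.79 FPKM in JMJD3c-D4, 10.2 in JMJD3c-mut-plus, 13.1 in JMJD3c-D0 and 13.4 in JMJD3c-mut-minus, the lowest in JMJD3c-D4. FGF8, a streak ligand, was listed at 5.84 against 6.31, within the thresholds.

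In the NODAL pathway, 2 of 17 ligand and receptor genes and 8 of 11 targets and inhibitors were called higher, against 6.56% of all genes tested. NODAL binds type I and II activin receptors with the co-receptor TDGF1, and SMAD2, SMAD3 and FOXH1 carry its signal to target genes, several of which encode its own inhibitors. Of the 17 ligand, receptor and mediator genes, 12 exceeded 4 FPKM, and those called were GDF3 and PCSK6. GDF3, a NODAL-related ligand, was listed at 32.1 FPKM in JMJD3c-D4, 11.1 in JMJD3c-mut-plus, 20.6 in JMJD3c-D0 and 22.6 in JMJD3c-mut-minus, so JMJD3c-mut-plus was again the low library. PCSK6, a protease that matures NODAL, was listed at 4.07 against 1.57 FPKM, with overlapping intervals. TDGF1 was listed at 146 against 151 FPKM, SMAD2 at 34.2 against 28.7 and FOXH1 at 29.3 against 28.6, all within the thresholds. The median difference of the 17 genes was 0.15 with Dox and 0.09 without, and -0.11 when JMJD3c-mut-minus took the place of JMJD3c-mut-plus.

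The 11 targets and inhibitors of NODAL all exceeded 4 FPKM, and none was called lower. Their median difference was 2.28 with Dox and -0.33 without. LEFTY1 and LEFTY2, secreted inhibitors of NODAL, were expressed in all 4 libraries. LEFTY1 was listed at 70.0 FPKM in JMJD3c-D4, 10.6 in JMJD3c-mut-plus, 19.7 in JMJD3c-D0 and 20.7 in JMJD3c-mut-minus. LEFTY2 was listed at 23.0, 3.96, 5.38 and 3.27 FPKM. Both were more than 2-fold above the 3 other libraries in JMJD3c-D4, and as close paralogs they may share reads. FST, the activin antagonist follistatin, was listed at 12.6 FPKM in JMJD3c-D4, 4.98 in JMJD3c-mut-plus, 1.94 in JMJD3c-D0 and 3.10 in JMJD3c-mut-minus. CER1, EOMES, GSC and MIXL1, described above, were also among the called members. Members that restrain or fine-tune SMAD signalling were not called: SMAD7 was listed at 14.3 against 19.2 FPKM, PMEPA1 at 13 against 14.1, and SKIL at 26.5 against 47.4.

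BMP ligands act through receptors of the same family and SMAD1 and SMAD5, with ID and MSX genes as common targets. Of 27 genes of this pathway, 17 exceeded 4 FPKM and 7 were called higher, against 6.56% of all genes tested. None was called lower, against 3%, and the median difference was 0.47 with Dox and 0.00 without. Among ligands, BMP2 was listed at 6.4 FPKM in JMJD3c-D4, 0.642 in JMJD3c-mut-plus, 0.992 in JMJD3c-D0 and 0.802 in JMJD3c-mut-minus. BMP4 was listed at 6.75, 2.08, 5.48 and 5.16 FPKM, so its call rested on the low level in JMJD3c-mut-plus, and the Dox-treated intervals overlapped. CHRD, the BMP antagonist chordin, was listed at 17.3, 0.423, 0.241 and 0.935 FPKM. BMP2 and CHRD were thus high in JMJD3c-D4 alone of the 4. ACVR1, a type I receptor, was just inside the threshold at 9.91 against 4.82 FPKM. The targets MSX1 and MSX2 were listed at 4.02 and 4.63 FPKM in JMJD3c-D4 and at 0 in JMJD3c-mut-plus, and ID4 at 5.94 against 1.46. ID1, ID2 and ID3, transcriptional inhibitors and direct BMP targets, were not called. ID3 was listed at 144 against 86.8 FPKM with Dox and 49.9 against 52.3 without, so both Dox-treated libraries were above both untreated ones.

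Of 34 WNT ligand, receptor and secretion genes, 14 exceeded 4 FPKM and 4 were called higher, against 6.56% of all genes tested: WNT3, FZD4, PORCN and WLS. WNT3, the ligand of the primitive streak, was listed at 10.9 FPKM in JMJD3c-D4, 2.77 in JMJD3c-mut-plus, 6.06 in JMJD3c-D0 and 5.27 in JMJD3c-mut-minus. WLS, which carries WNT proteins to the cell surface, was listed at 7.82, 1.57, 1.13 and 1.63 FPKM. PORCN, which adds the lipid that WNT proteins need, was listed at 5.29 against 2.55, and FZD4, a receptor, at 6.27 against 2.82. Of these 4, WLS alone was more than 2-fold above all 3 other libraries, with overlapping intervals. CTNNB1, which encodes beta-catenin, was listed at 226 against 205 FPKM, and FZD7, a frizzled receptor, at 23.8 against 24.5. Neither was called. The median difference of the 34 genes was 0.11, against 0.00 without Dox.

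Of 25 WNT targets and feedback inhibitors, 13 exceeded 4 FPKM and 5 were called higher, against 6.56% of all genes tested: SP5, DKK4, CER1, APCDD1 and TCF7. TCF7, a transcription factor of the pathway, was listed at 7.29 against 3.20 FPKM with Dox and 5.86 against 2.46 without, so the same difference was present before induction. APCDD1, a membrane inhibitor, was listed at 7.54 against 2.80 FPKM with Dox and 3.14 against 5.18 without. AXIN2, a general readout of WNT signalling, was listed at 14.4 against 11.1 FPKM with Dox and 17.6 against 9.64 without, and was not called in either. MYC was listed at 22.4 against 36.2 FPKM, CCND1 (cyclin D1) at 121 against 74.1 and SFRP1, a secreted inhibitor, at 52.8 against 30.2, all within the thresholds. The median difference of the list was 0.66 with Dox and 0.00 without.

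FGF signalling through ERK maintains hESCs and induces its own feedback inhibitors. Of 23 genes, 22 exceeded 4 FPKM and 4 were called higher, against 6.56% of all genes tested. DUSP4, a phosphatase that inactivates ERK, was listed at 7.52 FPKM in JMJD3c-D4, 0.526 in JMJD3c-mut-plus, 0.843 in JMJD3c-D0 and 0.511 in JMJD3c-mut-minus. FGF17, a streak ligand, was listed at 4.34 against 0.207 FPKM, and the immediate early genes EGR1 and FOS at 13.6 against 3.72 and 13.7 against 3.47. All 4 were more than 2-fold above all 3 other libraries. More abundant feedback genes were within the thresholds: DUSP6 was listed at 87.3 against 87.2 FPKM, SPRY4 at 42.7 against 40.5 and ETV4 at 85.0 against 92.1. The median difference of the list was 0.07 with Dox and 0.15 without.

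The pluripotency list was the only one of the 20 with more genes called lower than higher. Of 30 genes, 28 exceeded 4 FPKM, 4 were called lower, against 3% of all genes tested, 2 were called higher, against 6.56%, and 22 were lower in JMJD3c-D4 by any amount. The median difference was -0.37 with Dox and 0.01 without. It was -0.12 with JMJD3c-D3 in place of JMJD3c-D4, and -0.66 with JMJD3c-mut-minus in place of JMJD3c-mut-plus. The core factors POU5F1 and NANOG were listed at 619 against 629 FPKM and 92.9 against 102, and SOX2 at 65.9 against 74.6. These 3 differences were within the thresholds, and the study named several members of this list from these libraries. DPPA2, which maintains chromatin of developmental promoters, was listed at 2.78 FPKM in JMJD3c-D4, 11.9 in JMJD3c-mut-plus, 13.3 in JMJD3c-D0 and 14.8 in JMJD3c-mut-minus. TET1, which oxidizes methylcytosine, was listed at 5.83, 14.3, 14.4 and 16.5 FPKM, and UTF1, a chromatin protein of pluripotent cells, at 21.5, 55.2, 125 and 72.9. USP44, a ubiquitin protease, was listed at 18.3, 38.8, 35.5 and 48.5 FPKM. DPPA2, TET1 and UTF1 were below 0.5 of each of the 3 other libraries, and USP44 was below 0.5 of JMJD3c-mut-plus but not of JMJD3c-D0. TERF1, a telomere protein, lay just outside the threshold at 83.5 against 165 FPKM. DNMT3B and ZFP42 were listed at 191 against 308 and 60.4 against 105 FPKM, with intervals apart. Beside GDF3, the called higher gene was HESX1, a homeobox repressor, at 6.70 against 3.25 FPKM, with overlapping intervals.

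Markers of other lineages were measured in the same libraries. Of 30 neuroectoderm genes, 11 exceeded 4 FPKM and 4 were called higher, against 6.56% of all genes tested. There was 1 called lower, against 3%, and the median difference was 0.12. PAX6, an eye and forebrain regulator, was listed at 5.91 FPKM in JMJD3c-D4, 0.517 in JMJD3c-mut-plus, 2.22 in JMJD3c-D0 and 0.879 in JMJD3c-mut-minus. SOX3 was listed at 17.1 against 7.00 FPKM and ZIC1 at 15.8 against 6.47, and OTX2 is given above. GBX2, of the hindbrain and of pluripotent cells, was the gene called lower, at 5.61 against 12.8 FPKM. Of the 4 defining neuroectoderm markers, which summed to 54.4 FPKM in JMJD3c-D4 and 9.63 in JMJD3c-mut-plus, PAX6 and OTX2 were called higher. OTX2, also on the endoderm list, made up 47.7 of the 54.4 FPKM, while SOX1 was listed at 0.105 against 0.160 and LHX2 at 0.677 against 1.45 FPKM. The 5 defining trophoblast and amnion markers summed to 5.83 against 0.382 FPKM, the 4 of blood and endothelium to 2.29 against 0.423, and the 4 of fibroblasts to 7.42 against 7.54, with none called. On the longer lists, 5 of 22 trophoblast and amnion genes exceeded 4 FPKM, and TBX3 alone was called, as higher. Genes at or below 4 FPKM in both Dox-treated libraries could not be called. Over all genes tested, 6.56% were called higher and 3% lower. Of 14 blood and endothelium genes, 2 exceeded 4 FPKM, of which KDR was called lower, with the values given above, and FLI1 higher. FLI1, an ETS factor, was listed at 9.22 FPKM in JMJD3c-D4, 0.230 in JMJD3c-mut-plus, 0.415 in JMJD3c-D0 and 0.201 in JMJD3c-mut-minus. Of 13 fibroblast and muscle genes, 4 exceeded 4 FPKM and none was called. The part of a mixture of cell types in the differences above was not tested.

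Genes of the epithelial to mesenchymal transition, by which cells leave the streak, were called higher in 6 of 22 cases, against 6.56% of all genes tested, and lower in none, with a median difference of 0.52 with Dox and 0.03 without. VIM, the intermediate filament vimentin, was listed at 704 FPKM in JMJD3c-D4, 138 in JMJD3c-mut-plus, 46.9 in JMJD3c-D0 and 44.1 in JMJD3c-mut-minus. The mutant line thus also had more VIM with Dox than without, at a level below that of JMJD3c-D4. FN1, the matrix protein fibronectin, was listed at 129.6, 32.9, 44.4 and 37.2 FPKM, and its receptor subunit ITGA5 at 16.2, 3.01, 2.25 and 3.44. CDH2 (N-cadherin) was listed at 48.6 against 16.4 FPKM and SNAI1, a repressor of E-cadherin, at 4.15 against 1.89, the latter with overlapping intervals. The epithelial genes were within the thresholds: CDH1 (E-cadherin) was listed at 75.8 against 68.8 FPKM and EPCAM at 142 against 148.

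Genes that write and read H3K27 methylation were mostly within the thresholds. Of 28 listed, 22 exceeded 4 FPKM and 4 were called higher, against 6.56% of all genes tested. None was called lower, against 3%. The median difference was -0.04, and its sign turned with upper-quartile scaling (0.04), with the GC correction (0.10) and with JMJD3c-D3 in place of JMJD3c-D4 (0.13). The catalytic subunit EZH2 was listed at 41.5 against 33.5 FPKM, SUZ12 at 15 against 18.2 and EED at 16.2 against 13.8. The related demethylase KDM6A was listed at 17.8 against 27.2. All 4 called genes encode subunits of Polycomb repressive complex 1. PHC2 was listed at 18.2 FPKM in JMJD3c-D4, 6.15 in JMJD3c-mut-plus, 4.55 in JMJD3c-D0 and 4.18 in JMJD3c-mut-minus. RING1 was listed at 12.7, 6.24, 14.5 and 5.28 FPKM, so the difference was present without Dox. BMI1 was listed at 34.6 against 2.96 FPKM, but its exons are shared with the read-through gene COMMD3-BMI1, between which reads could be assigned either way, so its value is uncertain. PCGF5 was listed at 5.32 against 0.137 FPKM, with overlapping intervals. Among 39 HOX genes, classic targets of Polycomb, none exceeded 4 FPKM in either Dox-treated library, 29 were listed at 0 in both, and the highest value in JMJD3c-D4 was 2.26 FPKM for HOXB13.

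Further lists describe growth, stress and metabolism. Of 18 CDK inhibitor and p53 target genes, 3 were called higher and 1 lower. Over all genes tested, 6.56% were called higher and 3% lower, which holds for the counts of all lists in this paragraph. CDKN2A, which encodes the CDK inhibitor p16 and is a known Polycomb target, was listed at 6.63 FPKM in JMJD3c-D4, 1.21 in JMJD3c-D0 and 0 in both libraries of the mutant line, where 3 reads would have given 0.550 FPKM with Dox. Its level in JMJD3c-D4 corresponds to about 27.5 reads. BTG2, an antiproliferative gene, was listed at 9.32 FPKM in JMJD3c-D4, 0.994 in JMJD3c-mut-plus, 1.34 in JMJD3c-D0 and 1.2 in JMJD3c-mut-minus. CDKN1A, the main p53 target among CDK inhibitors, was listed at 6.44 against 5.68 FPKM and was not called. Of 25 genes of the ATF4 stress response, DDIT3 and CEBPB were called higher, both with overlapping intervals. ATF4 itself was listed at 258 against 263 FPKM. Of 24 cholesterol synthesis genes, 21 were higher by any amount and 2, MVK and DHCR7, were called, with a median difference of 0.23 against -0.03 without Dox. Of 22 glycolysis genes, PDK1 alone was called higher, at 11.6 against 4.22 FPKM, with overlapping intervals. The median difference of the 22 genes was -0.05 with Dox and 0.47 without, and the sign with Dox turned when the libraries were scaled to their upper quartile.

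The largest differences downwards were smaller and fell into different patterns across the 4 libraries. LRAT, which stores retinol as retinyl esters (chromosome 4, 155548113 to 155674270), was listed at 6.37 FPKM in JMJD3c-D4, 41.2 in JMJD3c-mut-plus, 20.6 in JMJD3c-D0 and 34.4 in JMJD3c-mut-minus, a difference of -2.52. INA, the neuronal intermediate filament internexin, was listed at 2.98, 19, 23.0 and 23.8 FPKM, and PPP1R1B, a phosphatase inhibitor, at 2.02, 10.2, 17.1 and 16.2. In these 3 genes, as in HES3, a HES family repressor (10.8 FPKM against 35.9), SOX8 (0.865 against 4.93), ANKRD13B (1.08 against 8.29), C17orf75 (18.5 against 57.0), ECEL1 (3.92 against 10.3) and ASS1, of arginine synthesis (16.2 against 43.5), JMJD3c-D4 was the low library of the 4 with its interval apart. For HES3 and PPP1R1B this rested on Day 4 alone, since JMJD3c-D3 was listed at 35.3 and 9.07 FPKM, a difference from JMJD3c-mut-plus of -0.03 and -0.15. CLEC7A, a pattern recognition receptor of myeloid cells, had a different pattern. It was listed at 21.4 FPKM in JMJD3c-mut-plus and at 0 in the 3 others, so its difference of -4.48 came from JMJD3c-mut-plus alone and was 0.00 when JMJD3c-mut-minus took its place. MRPL17, a mitochondrial ribosomal protein gene, INPP5F, a phosphoinositide phosphatase gene, and RIF1, a replication timing factor, showed yet another pattern. MRPL17 was listed at 4.41 against 29.0 FPKM with Dox and 5.09 against 25.4 without. INPP5F was listed at 14.4 against 47.0 with Dox and 14.4 against 45.4 without, and RIF1 at 8.25 against 29.2 and 11.8 against 31.6. These 3 were lower in the JMJD3c line by about as much without Dox. Of the others among the 15 largest, NPW, a neuropeptide gene, was listed at 0 against 5.54 FPKM, where 3 reads in JMJD3c-D4 would have given 1.12. PLP2, TSPAN7 and ZNF483 were listed at 1.4 against 8.54, 1.2 against 6.13 and 3.42 against 13.2 FPKM, each with its JMJD3c-D4 interval overlapping that of at least 1 untreated library. PLP2 was called the opposite way between the untreated lines, at 13.5 FPKM in JMJD3c-D0 and 5.16 in JMJD3c-mut-minus. Exons of INA, ANKRD13B, C17orf75, PLP2, RIF1, TSPAN7 and ZNF483 overlap exons of another annotated gene, to which some of their reads could belong. The same holds for the called higher genes TNC, CHRD, LEFTY1, PCSK6, FZD4, TCF7, PAX6, ZIC1, DDIT3, TP53I3 and MVK.

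Some genes were higher in the JMJD3c line both with and without Dox. Of 43 genes called higher in the Dox-treated and in the untreated lines with intervals apart in both, 13 encode cytosolic ribosomal proteins, 7 encode nuclear subunits of oxidative phosphorylation and 3 are mitochondrial genes, named here after their values were seen. All 9999 genes tested included 83, 76 and 13 of these kinds. RPL22 was listed at 340.1 FPKM in JMJD3c-D4, 110.3 in JMJD3c-mut-plus, 581 in JMJD3c-D0 and 112 in JMJD3c-mut-minus, and NDUFB1, a complex I subunit, at 235, 50.9, 198 and 33.1. Ribosomal protein genes have near-identical pseudogenes between which reads can be split, so their values are uncertain. Over all 83 ribosomal protein genes tested, the median difference was 0.39 with Dox and 0.67 without. With Dox, 16 (19.3%) were called higher, against 6.56% of all genes tested, and none lower, against 3%. Without Dox, 22 were called higher and none lower.

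Many of these genes are short, and both comparisons moved with transcript length and GC content. The longest transcript had a median length of 1522 bases for the 43 genes, 3540 for the 148 genes above all 3 other libraries with intervals apart and 3875 for all genes tested. Of tested genes under 1000 bases, 22.3% were called higher with Dox, against 5.97% of longer genes. In 20 bins by length, the median difference ran from 0.28 in the shortest bin to -0.19 in the longest with Dox, and from 0.36 to -0.16 without. In 20 bins by GC content it ran from -0.26 in the lowest to 0.15 in the highest with Dox, and from -0.33 to 0.41 without. The called higher genes had a median GC content of 52.5%, the called lower genes 44.3% and all genes tested 47.6%. After the median of each GC bin was subtracted, 659 genes were called higher and 261 lower, and without genes under 1000 bases 590 and 288. With Dox, the median was highest, at 0.20, in the bin with a median GC content of 60.2%, and lower in the bins above it. The direction of these trends was thus shared by the Dox-treated and the untreated pair over most of the range, with a larger rise with GC content without Dox. Their part in single genes was not tested.

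**Figure D3:**
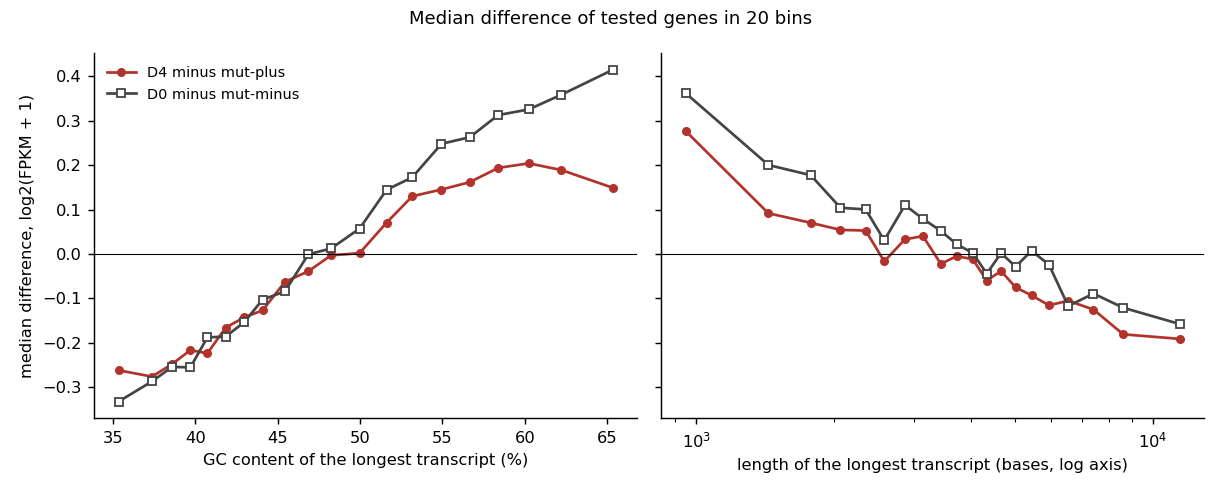
Median difference (vertical, log2(FPKM + 1)) of the genes tested in 20 bins by GC content (left, %) and by length (right, bases on a log axis) of the longest transcript; red is JMJD3c-D4 minus JMJD3c-mut-plus and grey is JMJD3c-D0 minus JMJD3c-mut-minus. Both lines rise with GC content over most of its range, from -0.26 and -0.33 in the lowest bin, and the red line falls again at the highest GC content. Both fall with length, from 0.28 and 0.36 in the shortest bin.

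A few genes differed in opposite directions in the Dox-treated and untreated pairs, with intervals apart in both, 6 in all. SLC39A8, a zinc and manganese transporter, was listed at 35.5 against 14.5 FPKM with Dox and 8.88 against 18.7 without. ASRGL1, an asparaginase, was listed at 15.1 against 7.16 with Dox and 4.79 against 10.7 without, and OSGIN2 at 11.2 against 4.53 and 2.66 against 11.7. Exons of OSGIN2, FBXO2 and RAB3D overlap those of another gene. FBXO2, of a ubiquitin ligase, went the other way, at 3.93 against 11.3 FPKM with Dox and 24.4 against 12.1 without, as did RAB3D, of vesicle transport, at 2.32 against 6.47 and 9.32 against 3.39. The sixth is the read-through gene TMEM189-UBE2V1, whose reads are shared with both of its parts. These genes were named after their values were seen.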

How the data were processed

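RNA-seq libraries from 4 of the 7 samples were compared, 1 per condition, with the 3 others (JMJD3c-D1, D2 and D3) used where named. The authors sequenced poly(A) RNA on a MiSeq as 150-base single-end reads, mapped them to hg19 with TopHat 2.0.13 and estimated FPKM with Cufflinks 2.1.1, and deposited FPKM per gene with 95% bounds and no counts. The labels were taken as the groups. The 22670 entries include 20187 on chromosomes, and the others were all listed at 0. Where a name had several entries, each was tested, and the entry with the highest mean was used for lists. The estimate of PAICS failed in JMJD3c-mut-minus and is listed at 0 there, so PAICS counts among the genes higher in the untreated JMJD3c line.

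The thresholds followed those of the study, a ratio above 2 or below 0.5 with more than 4 FPKM. The study does not say to which library its FPKM cutoff applied, and here it was the higher one. A pseudocount of 1 was used on the log2 scale. Depth was estimated from 45 single-exon genes, with 200 bases subtracted from their length, and floors of 3 reads cover counting error only. The files hold no counts, so no count test was made. Length and GC content came from GENCODE release 44 on GRCh37, for 99.1% of the genes tested, and promoters from RefSeq (GRCh38 table), placed on GRCh37 by exact match. Named genes were KDM6B and the 4 markers, the 15 largest differences each way with intervals apart, the 10 largest differences of differences each way among genes whose untreated lines differed by less than 1.5-fold or were both at or below 1 FPKM, and members of 20 lists, without small RNAs, genes under 300 bases, clone names, read-through names, chromosome Y genes and XIST. The lists, members and rules were chosen with earlier results of these data known. Alternatives changed the FPKM cutoff, fold, intervals, pseudocount, scaling, summing of entries, genes included, GC correction and libraries. Calculations used Python 3.11.15, numpy 2.4.6, pandas 2.3.3 and matplotlib 3.10.9 and were tested on simulated data. 1 gene of the NODAL target list is counted but not reported here by name.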

Additional observations from a re-analysis of the deposited data

Results flagged for a closer look

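For 2 gene lists, the median difference between the library with 4 days of Dox and the untreated library had opposite signs in the JMJD3c line and the mutant line, with a size above 0.1 in both. The other lists with opposite signs, definitive endoderm among them (2.10 and -0.07), had a median within 0.1 of 0 in at least 1 of the lines. For the NODAL targets and inhibitors, the median was 1.91 in the JMJD3c line (JMJD3c-D4 minus JMJD3c-D0) and -0.34 in the mutant line (JMJD3c-mut-plus minus JMJD3c-mut-minus), on the log2(FPKM + 1) scale. For the BMP pathway it was 0.16 and -0.13. The difference between the lines was not tested, because each condition had 1 library. As an example of a single gene with this pattern, LEFTY1 was listed at 70.0 FPKM in JMJD3c-D4 and 19.7 in JMJD3c-D0, and at 10.6 in JMJD3c-mut-plus and 20.7 in JMJD3c-mut-minus.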

How the results depend on the processing

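No paired analysis was possible because each condition had 1 library. The 656 higher and 300 lower genes became 1325 and 670 with a cutoff of 1 FPKM, 341 and 147 with 10 FPKM, 311 and 70 with a 3-fold threshold, and 328 and 126 with intervals apart. Between the untreated lines, the 705 higher and 279 lower genes became 1354 and 650, 385 and 128, 234 and 59, and 231 and 114 under the same 4 settings. The genes with the same 2-fold difference untreated, 159 and 32, became 368 and 102, 79 and 18, 50 and 9, and 43 and 11, and the 32 became 62 when JMJD3c-mut-minus, which both comparisons then share, took the place of JMJD3c-mut-plus. The 278 and 91 genes that differed from all 3 other libraries became 148 and 32 with intervals apart, and the 91 became 36 with JMJD3c-D3 in place of JMJD3c-D4, alternatives chosen after seeing the data, as was leaving out genes under 1000 bases. The cause of these changes is the stricter or looser rule itself, except for the changes of library, where the cause was not tested. The other 50 recomputed counts, under both scalings, summed entries, the filters on genes, the GC correction and the changes of library, were within 1.5 times. The median of NODAL ligands and receptors changed sign, from 0.15 to -0.11, with JMJD3c-mut-minus in place of JMJD3c-mut-plus, and the cause was not tested. Of the other recomputed list medians, 99 stayed within 0.1 of the main value and 40 moved further. With JMJD3c-D3 in place of JMJD3c-D4, the median of WNT targets and feedback inhibitors went from 0.66 to 0.20. That of the BMP pathway went from 0.47 to 0.22. The scalings moved the median of all genes from -0.02 to 0.02 and 0.06. With about 3550000 reads in JMJD3c-D0 and 4860000 in JMJD3c-D4, genes listed at 0 or near the floor of 3 reads give no reliable size.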

Other observations

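Genes outside the lists also set JMJD3c-D4 apart from the 3 other libraries with intervals apart, and those below were named after their values were seen. HAS2, which makes hyaluronan, was listed at 24.9 FPKM in JMJD3c-D4, 2.11 in JMJD3c-mut-plus, 2.68 in JMJD3c-D0 and 3.62 in JMJD3c-mut-minus. SERPINE2, a protease inhibitor, was listed at 162, 34.1, 29.3 and 29.1 FPKM, and TIMP1, which inhibits matrix metalloproteinases, at 59.0, 21.3, 17.9 and 16.0. COLEC12, a scavenger receptor, was listed at 12.9 against 0.534 FPKM in the Dox-treated pair. CST3, which like CST1 encodes a cystatin, was listed at 62.1 against 11.4 FPKM with Dox and 20.5 against 14.8 without. All 5 were highest in JMJD3c-D4 of the 4 libraries.

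APLNR, the apelin receptor of early mesoderm, was listed at 5.06 FPKM in JMJD3c-D4, 0.641 in JMJD3c-mut-plus, 0.165 in JMJD3c-D0 and 0.160 in JMJD3c-mut-minus. NPPB, the natriuretic peptide B gene, was listed at 18.4 against 1.27 FPKM, and GAL, the neuropeptide galanin, at 325 against 32.4. TGFB1, a ligand of the TGF-beta family, was listed at 25.1 against 4.01, with exons that overlap those of another gene, and FLRT3, a membrane protein of the streak and endoderm, at 5.79 against 0.580. CYR61, a matricellular gene, was listed at 38.5 against 16.0 FPKM, with 15.9 and 14.1 without Dox.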
